A study of Arabidopsis thaliana with 15 samples.

Results

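The genes described here are 9 Arabidopsis loci known for high expression in darkness or sugar starvation. They were taken from a list of locus identifiers, chosen with earlier results of these data known, and make up 9 of the 33323 genes in the deposited tables. Shares of all genes set beside counts of the 9 are therefore a description, not a test of the set. They are DIN1 (AT4G35770, also SEN1), DIN2 (AT3G60140), DIN3 (AT3G06850, also BCE2), DIN4 (AT3G13450), DIN10 (AT5G20250), ASN1 (AT3G47340), DRM1 (AT1G28330, also DYL1), MCCA (AT1G03090) and AKINBETA1 (AT5G21170). All 9 were read in all 15 libraries and all 9 passed the filter on low counts in every comparison.

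The libraries were made from the aerial part of wild-type Columbia-0 seedlings germinated on plates, for whose medium the growth protocol names no sugar. After 4 days of cold stratification and 4 days of darkness at 22 °C, seedlings were harvested at once (Dark), after 4 h of white light at 100 µmol per square metre per second (L4h) or after 4 h more of darkness (D4h). Total RNA was sequenced for all 3 states and polysome-bound RNA, the RNA loaded with ribosomes, for Dark and L4h. Each of the 5 groups holds 3 libraries by its labels, while the series text speaks of 2 replicates; no polysome-bound D4h library was analysed here. The labels do not say whether replicates came from separate sowings, so the p-values below measure the spread between these libraries, which may be technical.

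Plant cells short of sugar activate SnRK1, a conserved protein kinase that shuts down growth and switches on the breakdown of proteins, amino acids and lipids. The dark-inducible (DIN) transcripts were first isolated from leaves kept in darkness and are repressed by sugar. Several encode enzymes that break down leucine, isoleucine and valine in mitochondria, whose electrons then feed respiration. An etiolated seedling lives on seed reserves until light starts photosynthesis, and the L4h and D4h states ask how these transcripts behave at that switch and with the same time in darkness.

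Sequencing depth was high, with 60.8 M to 100.9 M reads assigned to genes per library. Libraries numbered 1 stood apart in their groups, with median absolute log2 differences of 0.344 to 0.583 from the others. The levels of 10 greening genes (light-harvesting, Rubisco small subunit and chlorophyll synthesis genes) were summed in CPM (reads scaled to a common library size by TMM). The library labelled D4h replicate 1 summed to 14055 CPM, against 1752 and 1585 CPM in D4h replicates 2 and 3. L4h total RNA summed to 11118 to 20297 CPM, so in these genes the library labelled D4h replicate 1 went against its label. Dark polysome-bound replicate 1 summed to 10304 CPM where replicates 2 and 3 summed to 1392 and 1675 CPM. Across genes, D4h replicate 1 differed from L4h total RNA libraries by median absolute log2 values of 0.410 to 0.500. From Dark total RNA libraries it differed by 0.485 to 0.567. The median absolute log2 difference across genes between D4h replicates 2 and 3 was 0.0609, against 0.132 to 0.583 for the other pairs within groups; it exceeded counting noise, and both were kept. Dark replicate 2 differed from D4h replicates 2 and 3 by medians of 0.0993 and 0.0986, less than from the other Dark libraries. The tissue label was checked with markers: all 7 aerial markers had reads in every library, and of 8 root markers 6 stayed at or below 3.29 CPM while CASP1 and CASP2 ranged over 91.4 to 504 and 62.4 to 277 CPM.

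The promoters of 4 of the genes are shown because they carry short elements linked to sugar or amino acid control, searched on both strands of the 250 bases before each annotated start (RefSeq, build TAIR10.1). Capitals mark the matches. The G-box CACGTG, bound by bZIP and bHLH factors, was found among the 9 only in ASN1, and in 6.49% of 27443 promoters. ACTCAT, an element of proline- and hypoosmolarity-responsive promoters, was found only in DRM1 of the 9, and in 12.3% of all promoters. TTATCC, a sugar-repressible element, lay in DIN1 (at 2 places), ASN1 and AKINBETA1 (at 2 places) and in 12.5% of all promoters. TATCCA, which overlaps TTATCC in sequence, lay in ASN1 and AKINBETA1 and in 13.6% of all. The evening element AAAATATCT was in none of the 9 windows and in 2.36% of all. The windows are chr4:16944628-16944877 on the plus strand for DIN1, chr3:17441432-17441681 on the minus strand for ASN1, chr1:9935441-9935690 on the minus strand for DRM1 and chr5:7205227-7205476 on the plus strand for AKINBETA1; each is written 5′ to 3′ towards the gene.
DIN1: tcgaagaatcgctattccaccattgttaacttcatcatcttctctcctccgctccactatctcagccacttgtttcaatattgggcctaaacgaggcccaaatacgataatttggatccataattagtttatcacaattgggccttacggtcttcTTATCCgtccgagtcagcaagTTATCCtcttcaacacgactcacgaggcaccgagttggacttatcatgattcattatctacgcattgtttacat
ASN1: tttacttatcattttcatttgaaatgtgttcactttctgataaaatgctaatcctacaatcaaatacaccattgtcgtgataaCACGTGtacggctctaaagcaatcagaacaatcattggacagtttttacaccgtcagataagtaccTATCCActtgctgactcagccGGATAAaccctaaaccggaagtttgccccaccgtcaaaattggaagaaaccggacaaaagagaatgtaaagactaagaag
DRM1: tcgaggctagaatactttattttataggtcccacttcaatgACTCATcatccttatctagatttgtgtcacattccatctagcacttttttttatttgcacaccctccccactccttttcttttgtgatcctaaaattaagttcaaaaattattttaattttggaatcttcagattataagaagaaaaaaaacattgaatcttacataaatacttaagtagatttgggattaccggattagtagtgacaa
AKINBETA1: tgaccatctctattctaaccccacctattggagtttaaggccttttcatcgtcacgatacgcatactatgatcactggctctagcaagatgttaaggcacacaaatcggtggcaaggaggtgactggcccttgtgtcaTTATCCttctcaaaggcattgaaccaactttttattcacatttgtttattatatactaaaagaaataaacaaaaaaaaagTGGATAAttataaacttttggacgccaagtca

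In darkness the 9 genes were among the most abundant transcripts of the seedlings. Levels are given in RPKM (reads scaled by gene length and library size, as deposited), which can be compared between genes. DIN10, a member of the raffinose synthase family, was highest in Dark total RNA with 1200.4 ± 111 RPKM (SD, n = 3), at percentile 99.8 of all genes. DRM1, a dormancy-associated gene, followed with 724 ± 154 RPKM. DIN2, a beta-glucosidase, stood at 620.4 ± 245 RPKM, DIN1, a rhodanese-like protein of dark-held and senescing leaves, at 609 ± 222 RPKM and ASN1, a glutamine-dependent asparagine synthetase that stores nitrogen as asparagine, at 467 ± 532 RPKM. DIN3, the acyltransferase (E2) subunit of the branched-chain keto acid dehydrogenase, stood at 245 ± 39.9 RPKM. MCCA, the biotin subunit of methylcrotonyl-CoA carboxylase in leucine breakdown, reached 219.7 ± 93.3 RPKM. AKINBETA1, a regulatory beta subunit of SnRK1 itself, stood at 133 ± 15.1 RPKM. DIN4, the E1 beta subunit of the branched-chain keto acid dehydrogenase, was lowest at 99.1 ± 39.3 RPKM. In this order only the step from DIN10 down to DRM1 was larger than the SD of either neighbour. Together the 9 genes took 1.20%, 0.734% and 0.682% of all gene reads in Dark total RNA replicates 1, 2 and 3, and 0.406%, 0.151% and 0.0758% in those of L4h.

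**Figure D1:**
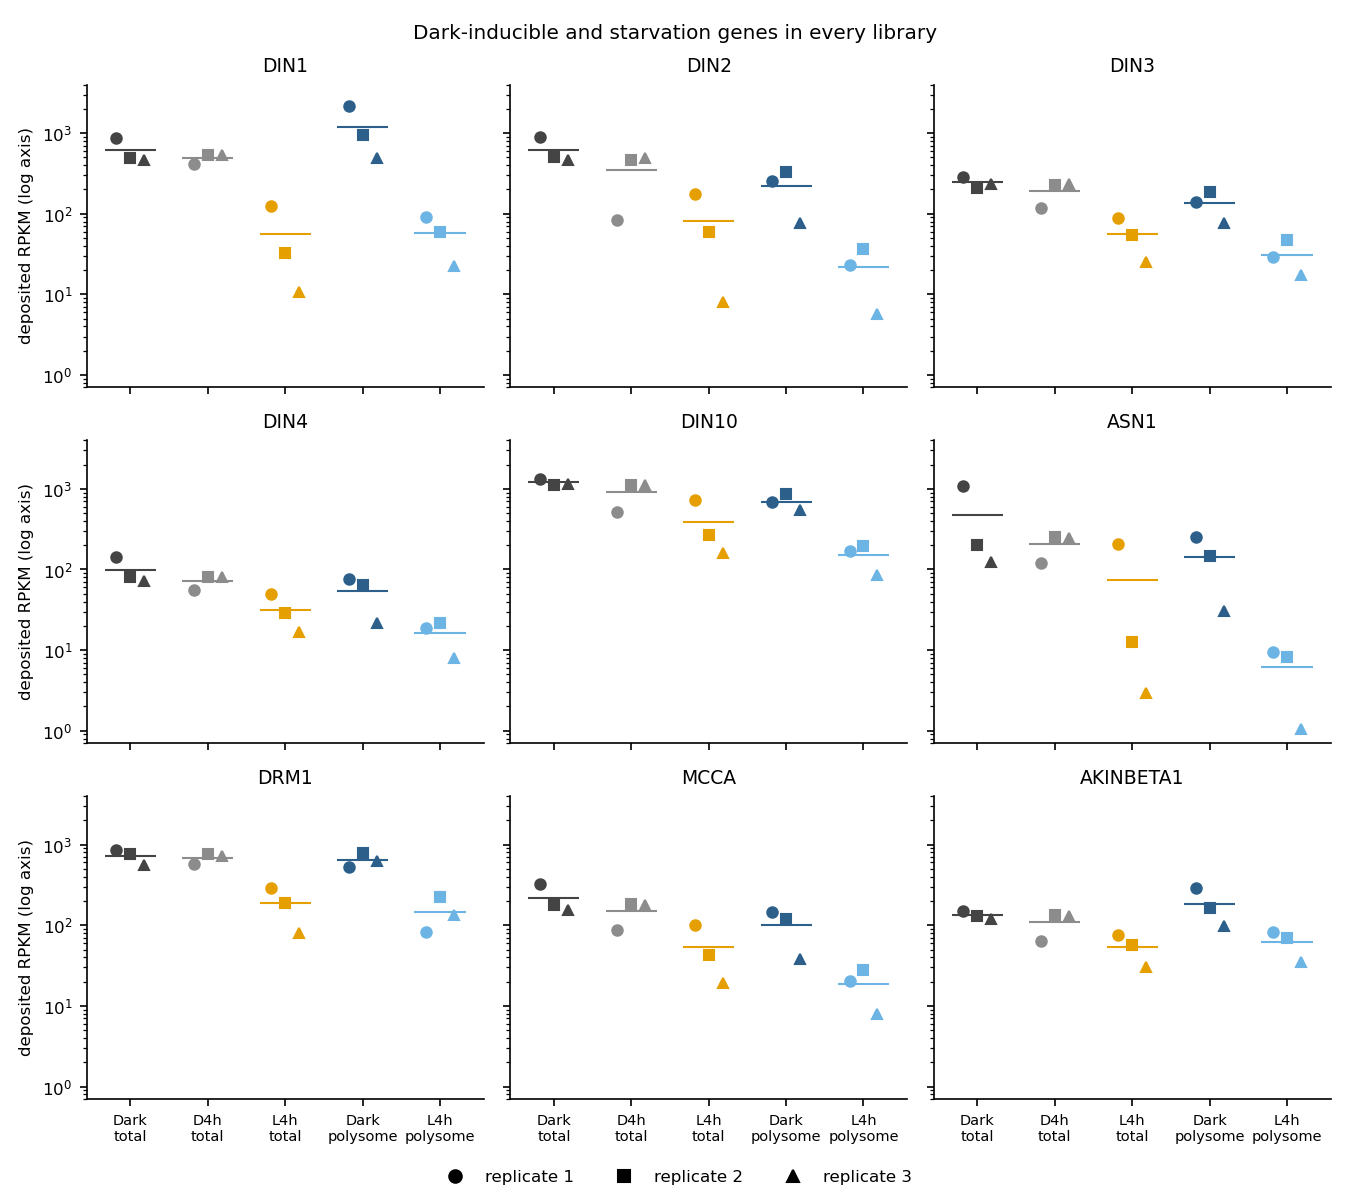
Deposited RPKM (log axis) of each gene in every library, by group; points are libraries, shaped by replicate number, and bars are group means. Both L4h groups hold the lowest means of each gene, and D4h replicates 2 and 3 lie near the Dark libraries.

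After 4 h of light, total RNA of all 9 genes was lower on average than in Dark, and DIN1, DIN3, DIN4 and DRM1 fell past the threshold (adjusted p under 0.05 by edgeR's quasi-likelihood test). These 4 of 9 compare with 10.2% of all genes tested that fell, and 12.6% that rose. In 8 of 9 genes every L4h library lay below every Dark library, against 22.4% of all genes; ASN1 was the exception. Libraries with the same replicate number deviated together in Dark and L4h, and a fit paired by number on these 6 libraries, added after the data were seen, called all 9 lower (background 17.4%). In bulk RNA, fewer cells of a type and less RNA per cell cannot be told apart.

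DIN1 fell the most of the called genes. It measured 864, 496 and 467 RPKM in Dark and 126, 32.9 and 10.6 RPKM in L4h. The 3 lit libraries lay far below all Dark libraries, with replicate 1 the highest of both groups. The fitted log2 change was -3.38 ± 0.82 (SE), 10.4-fold lower, with an adjusted p of 0.022. With 1 library left out it ran from -2.86 (without L4h replicate 3) to -4.80 (without L4h replicate 1), and the call was lost without Dark replicate 2, Dark replicate 3 or L4h replicate 2 (adjusted p 0.056, 0.051 and 0.073). DIN2 measured 902, 502 and 458 RPKM in Dark and 174, 58.9 and 7.95 RPKM in L4h. Its groups did not overlap either, but the lit libraries spread over a wide range, and the log2 change of -2.90 ± 1.06 had an adjusted p of 0.080. Paired by number on Dark and L4h libraries, DIN2 changed by -3.62 ± 0.77 with an adjusted p of 0.021; in the paired fit that also held D4h it did not pass (adjusted p 0.089).

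The 3 genes of branched-chain amino acid breakdown moved by like amounts. DIN3 measured 288, 210.0 and 235 RPKM in Dark and 89.2, 54.8 and 25.3 RPKM in L4h, a log2 change of -2.08 ± 0.48 (adjusted p 0.018). Its groups stood well apart, but the call was lost without Dark replicate 3 or L4h replicate 2 (adjusted p 0.052 and 0.062). For DIN4 the Dark values were 144, 81.0 and 72.2 RPKM and the L4h values 49.2, 28.8 and 17.0 RPKM. The log2 change was -1.62 ± 0.44 (adjusted p 0.032). With 1 library left out the DIN4 call was kept only without L4h replicate 1 (adjusted p 0.015 to 0.10 over the 6 omissions). MCCA stood at 327, 176 and 156 RPKM in Dark and at 101.3, 42.7 and 19.3 RPKM in L4h. The MCCA groups did not overlap, and the log2 change of -1.98 ± 0.63 had an adjusted p of 0.055, or 0.0055 in the fit paired by number on Dark and L4h libraries and 0.049 in the paired fit that also held D4h.

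DIN10 measured 1328, 1125 and 1149 RPKM in Dark and 725, 265 and 159 RPKM in L4h. Replicate 1 kept more of the transcript in light than the other lit libraries, and the log2 change of -1.60 ± 0.58 had an adjusted p of 0.081 (-1.87 ± 0.43 and 0.026 when paired on Dark and L4h libraries, and 0.088 with D4h in the paired fit). ASN1 varied the most between libraries, at 1079.8, 200.2 and 122 RPKM in Dark and 204, 12.6 and 2.97 RPKM in L4h. Its L4h replicate 1 lay above 2 Dark libraries, so the groups overlapped, and the unpaired log2 change of -2.63 ± 1.45 had an adjusted p of 0.22. Within each replicate number ASN1 was lower in light, and the log2 change paired on Dark and L4h libraries was -3.84 ± 0.63 (adjusted p 0.010, or 0.084 with D4h in the paired fit).

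DRM1 measured 853, 767 and 553 RPKM in Dark and 289, 191 and 79.4 RPKM in L4h, a log2 change of -1.92 ± 0.45 (adjusted p 0.019). The lit libraries all lay below the lowest dark one, but the call was lost without replicate 2 of either group (adjusted p 0.062 each). AKINBETA1 had the smallest change of the 9: 149, 132 and 119 RPKM in Dark against 76.4, 57.0 and 30.0 RPKM in L4h, with a log2 change of -1.26 ± 0.40 (adjusted p 0.052, or 0.0099 when paired on Dark and L4h libraries and 0.071 with D4h in the paired fit).

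**Figure D2:**
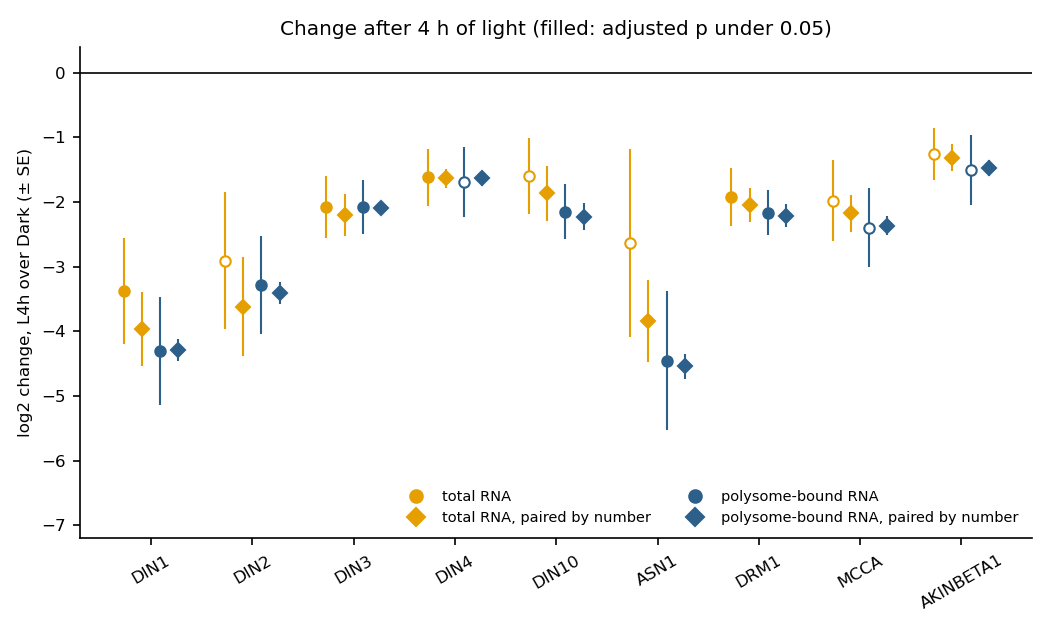
Fitted log2 change of each gene from Dark to L4h with its standard error, in total RNA (orange) and polysome-bound RNA (blue), unpaired (circles) and paired by replicate number (diamonds; for total RNA on Dark and L4h libraries only). Filled symbols passed an adjusted p of 0.05; all values lie below 0, and the paired errors are the smaller ones for every gene.

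The size of the fall differed by replicate number. Dark to L4h ratios of RPKM within number 1 ran from 1.83 (DIN10) to 6.85 (DIN1), within number 2 from 2.31 (AKINBETA1) to 15.9 (ASN1) and within number 3 from 3.98 (AKINBETA1) to 57.6 (DIN2). All 9 genes were lower in light within every number. Replicate 1 was the highest library for all 9 genes in both Dark and L4h total RNA, and replicate 3 the lowest for all 9 in L4h. Without all libraries numbered 1, all 9 genes were called lower (background 24.2%), with log2 changes from -1.50 (AKINBETA1) to -4.45 (DIN1). The paired fit over all 9 total RNA libraries called 5 of 9 (background 12.6%), DESeq2 called 7 (12.3%) and limma on log2 RPKM called 8 (13.5%). Leaving out 1 library moved the count: none of the 9 was called without L4h replicate 2, 1 without Dark replicate 2, 1 without Dark replicate 3, and all 9 without L4h replicate 1. Summed root marker levels overlapped between Dark (186 to 477 CPM) and L4h (154 to 414 CPM), as did those of the aerial markers (21.8 to 65.4 and 53.1 to 99.3 CPM) and 9 seed storage genes (6.96 to 396 and 6.86 to 52.9 CPM). Within each replicate number, though, aerial marker sums were higher in L4h (65.4 to 99.3, 31.1 to 53.1 and 21.8 to 83.7 CPM for numbers 1, 2 and 3), and root (186 to 154, 477 to 320 and 432 to 414 CPM) and seed storage sums (98.8 to 52.9, 6.96 to 6.86 and 396 to 37.9 CPM) were lower. The part of these markers in the result was not tested. In every library, polysome-bound ones included, CASP1 and CASP2 held nearly all of the root marker sum.

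**Figure D3:**
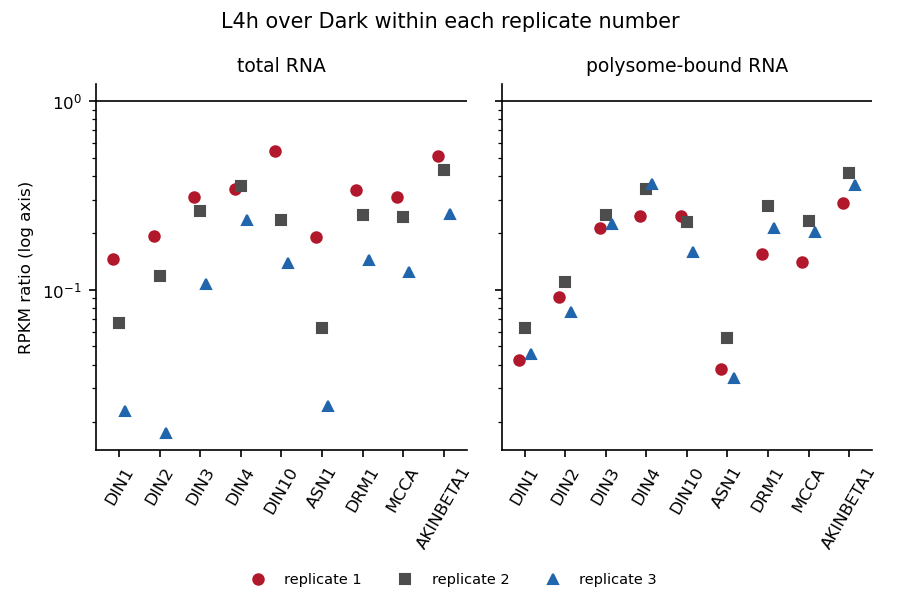
L4h over Dark ratio of RPKM (log axis) within each replicate number, for total RNA and polysome-bound RNA; the line marks a ratio of 1. Every point lies below 1. In total RNA the ratios of replicate 3 are the lowest for every gene, while in polysome-bound RNA the 3 numbers lie closer together.

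With 4 h more in darkness instead of light, none of the 9 genes passed the test against Dark, a comparison in which 0% of all genes fell and none rose (822 genes had an unadjusted p under 0.05, and DESeq2 called 18). This comparison and that of L4h share the Dark libraries. DIN1 measured 411, 537 and 539.6 RPKM in D4h replicates 1, 2 and 3, DRM1 measured 568, 760.3 and 716 RPKM, and DIN10 measured 519, 1112 and 1109 RPKM. In all 9 genes the library labelled D4h replicate 1 was the lowest of its group. As a ratio the gap was widest in DIN2 (82.4, 468 and 484 RPKM), and ASN1 showed the same order (119, 256 and 248 RPKM). The branched-chain genes measured 116, 224 and 231 RPKM (DIN3), 55.0, 81.5 and 81.1 RPKM (DIN4) and 86.1, 186 and 179 RPKM (MCCA), and AKINBETA1 measured 63.4, 135 and 130.3 RPKM. Of the 9, DIN10 alone had all D4h libraries below all Dark libraries, against 5.02% of all genes. The log2 changes ran from -0.14 ± 0.43 (DRM1) to -1.25 ± 1.39 (ASN1), with adjusted p of 0.85 to 0.95. Without all libraries numbered 1 they ran from -0.03 ± 0.22 (DIN10) to 0.65 ± 0.60 (ASN1), with 7 of 9 above 0. Leaving out the library labelled D4h replicate 1 alone gave -0.94 (ASN1) to 0.01 (DRM1).

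Against the D4h control of the same age, DIN1, DIN3 and DRM1 were lower in light (3 of 9 called, background 7.49%). Their log2 changes were -3.02 ± 0.81, -1.67 ± 0.47 and -1.78 ± 0.44, with adjusted p of 0.041, 0.048 and 0.032. With 1 library left out the DIN1 value ran from -2.51 (without L4h replicate 3) to -4.45 (without L4h replicate 1). DIN1, DIN3, DIN4 and DRM1 had all L4h libraries below all D4h libraries (4 of 9, against 22.8% of all genes). In the other 5 genes L4h replicate 1 lay above the library labelled D4h replicate 1, as in DIN2 (174 against 82.4 RPKM). Without all libraries numbered 1 all 9 were called lower (background 22.7%), from -1.59 ± 0.27 in AKINBETA1 to -5.01 ± 0.71 in ASN1. The paired fit called 2 (background 9.72%), although D4h libraries were not taken as paired by number. None was called with D4h replicates 2 and 3 summed as 1 library, nor without D4h replicate 2, D4h replicate 3 or L4h replicate 2; 1 was called without L4h replicate 3 and 7 without L4h replicate 1. Without the library labelled D4h replicate 1, 4 of 9 were called (DIN1, DIN3, DRM1 and AKINBETA1, adjusted p 0.021 to 0.041) among 5604 genes, against 3132 with it.

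In polysome-bound RNA all 9 genes were again lower in L4h, and the groups of all 9 did not overlap, against 13.4% of all genes. DIN1, DIN2, DIN3, DIN10, ASN1 and DRM1 passed the test (6 of 9, background 5.01%). Paired by replicate number, all 9 passed (background 21.3%), with adjusted p of 0.00022 to 0.00097. Pairing was assumed from same-numbered deviations, which correlated by 0.560 to 0.694 in these libraries. DESeq2 also called 9 (background 7.02%).

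ASN1 changed the most. It measured 251, 149 and 30.5 RPKM in Dark polysome-bound RNA and 9.49, 8.22 and 1.04 RPKM in L4h, so each lit library lay below the lowest dark one. The log2 change was -4.45 ± 1.08, 21.9-fold lower, with an adjusted p of 0.043. With 1 library left out it ran from -3.61 (without Dark replicate 1) to -5.13 (without L4h replicate 1), and the call was kept only without Dark replicate 3 (adjusted p 0.041 to 0.14 over the 6 omissions). DIN1 followed, with 2156, 946 and 488 RPKM in Dark and 91.7, 59.5 and 22.3 RPKM in L4h (log2 change -4.30 ± 0.84, adjusted p 0.022), or from -3.43 without Dark replicate 1 to -5.03 without L4h replicate 1, and its call was lost without replicate 2 of either group and without L4h replicate 3. The Dark value of replicate 1 was the highest of any of the 9 genes in any library. DIN2 measured 254, 326 and 75.8 RPKM against 23.4, 36.0 and 5.76 RPKM, a log2 change of -3.28 ± 0.76 (adjusted p 0.038). The DIN2 call too was kept only without Dark replicate 3 (adjusted p 0.039 to 0.11 over the 6 omissions).

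DRM1 measured 526, 797 and 632 RPKM in Dark and 81.6, 222 and 134 RPKM in L4h (log2 change -2.16 ± 0.35, adjusted p 0.011). DIN10 measured 691, 854 and 542 RPKM against 170.1, 195 and 85.8 RPKM (log2 change -2.15 ± 0.43, adjusted p 0.023). DIN3 measured 138, 187 and 76.8 RPKM against 29.2, 46.5 and 17.1 RPKM (log2 change -2.07 ± 0.42, adjusted p 0.025). Each of these 3 genes had its dark and lit libraries clearly apart. With 1 library left out, the DRM1 call was lost only without Dark replicate 2. The DIN10 call was lost without replicate 2 or 3 of either group, and the DIN3 call without Dark replicate 2 or any L4h library.

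The other 3 genes did not pass by edgeR's unpaired fit but passed when paired and by DESeq2 (adjusted p 0.00064 for MCCA, 0.019 for DIN4 and 0.040 for AKINBETA1); MCCA also passed with no filter and by limma. MCCA measured 144, 119 and 38.7 RPKM against 20.4, 27.7 and 7.86 RPKM, with a log2 change of -2.40 ± 0.61 (adjusted p 0.051, or 0.00037 paired). DIN4 measured 76.1, 63.3 and 21.9 RPKM against 18.8, 21.6 and 8.00 RPKM, with -1.69 ± 0.54 (adjusted p 0.099, or 0.00046 paired). AKINBETA1 measured 288, 165 and 97.2 RPKM against 83.1, 68.9 and 34.9 RPKM, with -1.50 ± 0.54 (adjusted p 0.13, or 0.00074 paired). In these genes Dark replicate 3 lay close above the highest lit libraries. Within numbers 1, 2 and 3 the Dark to L4h ratios of the 9 genes ran from 3.47 to 26.4, 2.40 to 18.1 and 2.74 to 29.3. Without all libraries numbered 1 the unpaired fit called 3 of 9 (background 6.67%); none was called without Dark polysome-bound replicate 2, 1 without L4h polysome-bound replicate 2, 1 without replicate 3 and 3 without replicate 1 of that group. Of 10 greening genes 1 was called higher by the unpaired fit, near the 5.5% of all genes that rose. When paired all 10 were called higher, against 4584 of 20975 genes. Their summed level rose within each number (10304 to 71608, 1392 to 16221 and 1675 to 17573 CPM), opposite to the 9 genes. Within each number root marker sums were also lower in L4h polysome-bound RNA (782 to 544, 469 to 315 and 662 to 442 CPM), as were seed storage sums (542 to 202, 12.5 to 11.8 and 139 to 91.9 CPM), and aerial marker sums were higher (129 to 200.0, 37.1 to 70.9 and 24.0 to 57.1 CPM); their part was not tested.

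Comparing polysome-bound with total RNA of the same state, none of the 9 genes passed the unpaired test. In Dark 9.34% of all genes were called lower and 10.6% higher in polysome-bound RNA, and in L4h 9.15% and 11.7%. Total and polysome-bound libraries of the same number were taken as paired, although the weakest correlation, in L4h number 3, was 0.123. The paired fit called DIN4 and MCCA lower in Dark (2 of 9, background 15.7%), with log2 differences of -0.76 ± 0.21 (adjusted p 0.021) and -1.04 ± 0.30 (adjusted p 0.025). In L4h it called the same 2 genes and ASN1 lower (3 of 9, background 15.3%): DIN4 differed by -0.65 ± 0.21 (adjusted p 0.038), MCCA by -1.11 ± 0.30 (adjusted p 0.019) and ASN1 by -2.10 ± 0.70 (adjusted p 0.043). In 4 of 9 genes (DIN2, DIN3, DIN10 and MCCA) all Dark polysome-bound libraries lay below all Dark total RNA libraries, against 28% of all genes.

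For DIN1 and AKINBETA1 most ratios lay above 1, without passing. In Dark, DIN1 gave polysome-bound to total ratios of RPKM of 2.49, 1.91 and 1.05 within numbers 1, 2 and 3, and in L4h 0.727, 1.81 and 2.11 (Dark paired log2 difference 0.93 ± 0.39, adjusted p 0.092). RPKM is not scaled by TMM, as the fits are. With TMM scaling the DIN1 ratios were 3.09, 2.02 and 1.36 in Dark and 0.998, 1.89 and 2.54 in L4h. AKINBETA1 gave 1.93, 1.26 and 0.814 in Dark and 1.09, 1.21 and 1.16 in L4h (paired log2 differences 0.55 ± 0.23 and 0.51 ± 0.23, adjusted p 0.095 and 0.12). With TMM scaling its ratios all lay above 1 (2.39, 1.33 and 1.06 in Dark and 1.49, 1.26 and 1.40 in L4h). DRM1 gave 0.617, 1.04 and 1.14 in Dark and 0.282, 1.17 and 1.69 in L4h, on both sides of 1. The L4h ratio of ASN1 was 0.046 within number 1 and 0.654 and 0.351 within numbers 2 and 3. Whether light changed a gene's level in polysome-bound relative to total RNA was tested as an interaction of light and kind of RNA. None of the 9 genes passed, and 0% of all genes did (115 had an unadjusted p under 0.05, and DESeq2 called 3). Both kinds of RNA were scaled to common library sizes, so a shift of all genes together would not show. The interaction estimates ran from -1.76 ± 1.97 (ASN1) to 0.05 ± 0.64 (DIN3) on the log2 scale, so for ASN1 the error alone spans several fold.

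**Figure D4:**
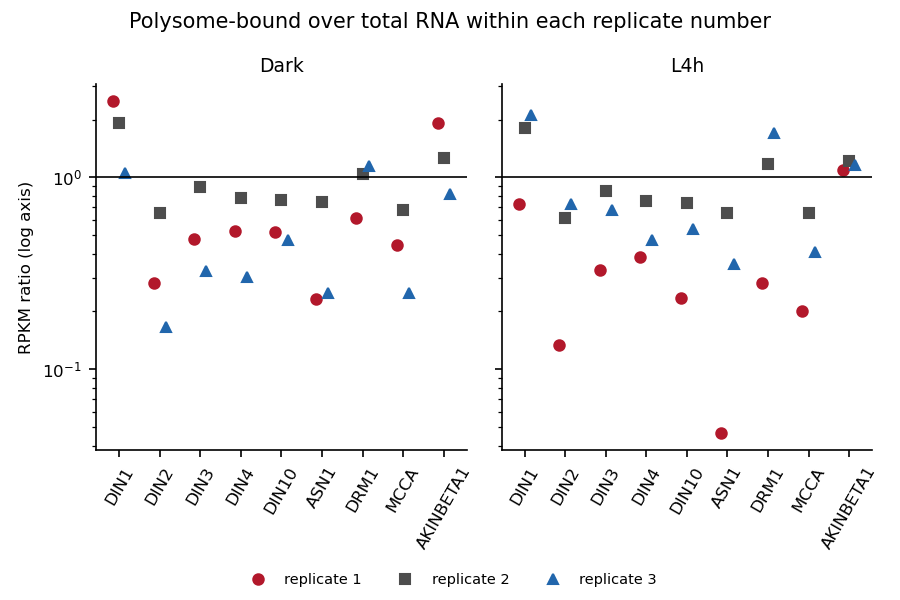
Polysome-bound over total RNA ratio of RPKM (log axis) within each replicate number in Dark and L4h; the line marks a ratio of 1. DIN2, DIN3, DIN4, DIN10, ASN1 and MCCA lie below 1 in every number, while DIN1, DRM1 and AKINBETA1 have points on both sides of it in at least 1 state. The ratios shown are not scaled by TMM. With that scaling every AKINBETA1 ratio is above 1.

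The wider lists around the 9 genes differed. Most genes of branched-chain amino acid breakdown and most further sugar-repressed genes fell in the fit paired on Dark and L4h libraries. The other lists went both ways or held few calls. Of 19 genes of branched-chain amino acid breakdown, members included, 8 fell and 1 rose in total RNA after light, and 13 fell and 2 rose in the fit paired on Dark and L4h libraries; without all libraries numbered 1, 13 fell and 3 rose. Of all genes 10.2% fell and 12.6% rose in the unpaired fit. The shares that fell were 17.4% in the paired fit and 24.2% without libraries numbered 1. The median log2 change of the 19 genes was -1.28, against -0.02 over all genes. MCCB, the partner subunit of MCCA, fell by 1.66 ± 0.45 on the log2 scale (adjusted p 0.032), and the aminotransferase BCAT-1 fell by 1.66 ± 0.36 (adjusted p 0.015). BCAT-1 was scarce, at 4.89 ± 1.02 RPKM in Dark and 1.48 ± 0.78 RPKM in L4h. BCAT-2, named for its level after its values were seen, stood at 205 ± 184 and 20.3 ± 23.8 RPKM. Paired on Dark and L4h libraries, BCAT-2 changed by -3.79 ± 0.48 (adjusted p 0.0049). The electron transfer genes ETFQO and ETFBETA fell by 1.35 ± 0.36 and 0.65 ± 0.19 (adjusted p 0.030 and 0.040). The riser was mtLPD1, the lipoamide dehydrogenase (E3) that photorespiratory glycine decarboxylase also uses, with 42.9 ± 6.06 RPKM in Dark and 138 ± 24.5 RPKM in L4h (log2 change 1.73 ± 0.34, adjusted p 0.011). In polysome-bound RNA 3 of the 19 fell and none rose, or 12 fell and 3 rose when paired. There 5.01% of all genes fell by the unpaired fit and 21.3% when paired.

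The asparagine synthetases split. ASN2 rose from 3.61 ± 0.385 RPKM in Dark to 90.9 ± 48.1 RPKM in L4h (log2 change 4.68 ± 0.80, adjusted p 0.0064), and by 4.15 on the log2 scale in polysome-bound RNA (adjusted p 0.0015), where 5.5% of all genes rose. ASN3 rose from 6.21 ± 0.622 to 12.3 ± 3.80 RPKM (log2 change 1.03 ± 0.29, adjusted p 0.036). ASN1 took the opposite course. Per length, the lowest Dark library of ASN1 (122 RPKM) stood above the Dark means of ASN2 and ASN3. The L4h means of ASN1 (73.3 ± 114 RPKM) and ASN2 differed by less than the SD of ASN1, whose replicates measured 204, 12.6 and 2.97 RPKM. In L4h polysome-bound RNA ASN1 stood at 6.25 ± 4.56 RPKM and ASN2 at 61.5 ± 19.1 RPKM.

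In the raffinose synthase family of 5 genes, 1 rose and none fell by the unpaired fit, and DIN10 was the only one called lower when paired. Of all genes 12.6% rose and 10.2% fell unpaired, and 17.4% fell when paired on Dark and L4h libraries. The riser, AT5G40390, went from 17.6 ± 4.51 to 69.4 ± 36.4 RPKM (log2 change 2.01 ± 0.39, adjusted p 0.010). AT1G55740 (log2 change 0.15 ± 0.26), AT3G57520 (-0.16 ± 0.44) and AT4G01970 (-1.28 ± 0.55) did not pass.

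Of 7 SnRK1 subunit genes, none passed in total RNA by the unpaired fit; 2 fell when paired, AKINBETA1 and the gamma-type subunit gene KING1 (-0.79 ± 0.32 unpaired, adjusted p 0.11). The catalytic subunits KIN10 and KIN11 changed by -0.19 ± 0.13 and -0.12 ± 0.14, SNF4 by 0.23 ± 0.13, AT4G16360 by 0.26 ± 0.14 and AT2G28060 by 0.04 ± 0.13. Without all libraries numbered 1, 2 of the 7 fell and 1 rose. Of all genes 17.4% fell when paired on Dark and L4h libraries. Without libraries numbered 1, 24.2% of all genes fell and 5241 of 21793 rose. The SnRK1 counts lie near these shares. Among 18 further sugar-repressed or SnRK1-induced genes 3 fell and none rose, with a median log2 change of -1.07. When paired 14 fell and 1 rose, and 13 fell without libraries numbered 1. The matching shares of all genes that fell were 10.2%, 17.4% and 24.2%. GDH1, a glutamate dehydrogenase, fell by 2.45 ± 0.24 (adjusted p 0.00072), the beta-galactosidase BGAL4 by 2.03 ± 0.45 (adjusted p 0.016) and GDH2 by 1.29 ± 0.31 (adjusted p 0.021).

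Named for their DIN label after their values were seen, DIN9, a mannose-6-phosphate isomerase gene, and DIN11 did not pass the unpaired test, with log2 values of 0.52 ± 0.48 (adjusted p 0.46) and -1.98 ± 1.14 (adjusted p 0.24). In the fit paired on Dark and L4h libraries DIN9 was called higher (0.48 ± 0.14, adjusted p 0.047) and DIN11 lower (-2.43 ± 0.57, adjusted p 0.027); neither passed in the paired fit that also held D4h (adjusted p 0.43 and 0.13). The bZIP factors that act with SnRK1 at such promoters went both ways: GBF6 (bZIP11) rose by 2.26 ± 0.31 (adjusted p 0.0027), bZIP44 fell by 1.92 ± 0.37 (adjusted p 0.010), and bZIP1 (-1.03 ± 0.40), bZIP2 (0.08 ± 0.23), BZIP53 (0.08 ± 0.19) and BZO2H3 (bZIP63, -0.25 ± 0.34) did not pass. Paired on Dark and L4h libraries, GBF6 rose and bZIP44 and bZIP1 fell, bZIP1 by 1.10 ± 0.24 (adjusted p 0.023, or 0.12 with D4h in the paired fit); without libraries numbered 1, BZO2H3 also fell (-0.69 ± 0.14, adjusted p 0.0091). Of 9 ATG8 autophagy genes ATG8F fell by 0.91 ± 0.15 (adjusted p 0.0057) and none rose. When paired 3 fell, and without libraries numbered 1 4 fell and 1 rose. The matching shares of all genes that fell were 10.2%, 17.4% and 24.2%.

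**Figure D5:**
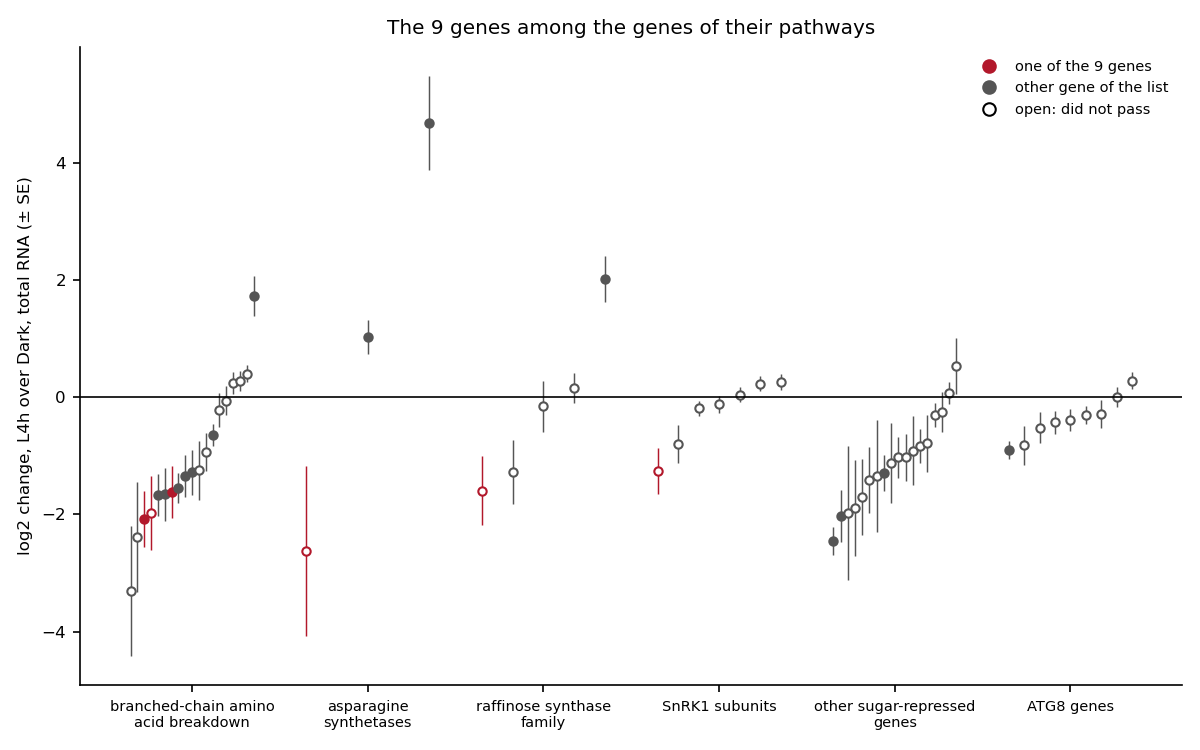
Log2 change from Dark to L4h in total RNA, with its standard error, for the genes of 6 lists, sorted within each list; red points are from the 9 genes, and open points did not pass the unpaired test. ASN2 lies highest at 4.68, and ASN1 has the longest error bar.

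Across the 15 libraries the 9 genes varied together: the 36 pairwise Pearson correlations of log2 CPM ran from 0.725 to 0.992 with a median of 0.896, given as a description of libraries that share groups and replicate numbers. DIN4 and MCCA were most alike (0.992). Among 18674 expressed genes, the 2 most like DIN3 were AT5G63620 (0.994) and the aldehyde dehydrogenase gene ALDH7B4 (0.985), and those most like DIN2 were IVD, isovaleryl-CoA dehydrogenase of leucine breakdown (0.987), and AT5G63620 (0.986). ETFQO was second for both DIN4 (0.989) and MCCA (0.988). ASN1 came closest to AT1G02610 (0.986) and MCCA (0.981), DIN10 to AT5G63620 and ACBP3 (both 0.982), DRM1 to AT1G77640 and AT1G61160 (both 0.968), and AKINBETA1 to AT1G09460 (0.979) and AT5G51970 (0.974). For DIN1 the first were AT1G23050 and AT1G23052, with the same value of 0.987. Some annotated genes overlap the 9 on the opposite strand in TAIR10.1, by 9 bases at DIN3, 27 at DIN4, 82 at DIN10, 11 at ASN1 and 225 and 300 at MCCA, and whether counting used strand is not given in the sources used here. How reads shared by near-identical genes were divided is not given either, which may touch the asparagine synthetases and the E1 beta pair DIN4 and BCDH BETA1. Expected counts of DIN4 and MCCA were fractional in every library and those of DIN10 in some, while those of ASN1 were whole.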

How the data were processed

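RNA sequencing was read as the per-library gene tables that the authors deposited, each giving a gene length, an expected count of reads per gene (84.4% to 87.2% of values whole, tolerance 1e-06) and RPKM; the aligner, counter and strand setting are not given in the sources used here, and the build is TAIR10 per the submitters' processing notes. The deposited RPKM values were used as levels, with mean ± SD over n = 3. Samples were grouped by their titles. For tests the expected counts were rounded and analysed across all genes with edgeR 4.0.16 in R 4.3.3 (quasi-likelihood test on TMM-scaled libraries, low genes removed by filterByExpr at min.count 10, Benjamini-Hochberg adjustment over all genes tested, threshold 0.05): the 9 total RNA libraries in one fit, the 6 polysome-bound ones in another, and the 12 Dark and L4h libraries in one more for polysome-bound against total RNA and the interaction. A paired fit adds the replicate number as a block.

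The numbers were taken to pair libraries where same-numbered deviations from group means correlated over 0.1 in all 3 numbers, across 22091 genes: Dark with L4h total RNA (0.595, 0.384 and 0.406), Dark with L4h polysome-bound RNA (0.694, 0.560 and 0.633), and total with polysome-bound RNA in Dark (0.473, 0.277 and 0.407) and L4h (0.366, 0.383 and 0.123). D4h failed this with Dark (0.152, 0.0786 and 0.105) and L4h (-0.04, 0.301 and -0.27). The limit of 0.1 falls between close values, 0.123 in an accepted set and 0.0786 in a rejected one. Correlations between different numbers were not computed for comparison, so pairing by number is an assumption of the paired results.

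The 9 genes and the wider lists were chosen with earlier results of these data known. Of each list outside the 9 genes the text names at most the 3 largest changes past the threshold in L4h against Dark total RNA, examples past it, and all genes of lists of up to 7. The 2 genes most like each of the 9 were ranked by Pearson's r of log2 CPM (prior count 2) over the 15 libraries, among genes with a mean of at least 1 CPM. Promoters were read from the RefSeq TAIR10.1 genome. Other settings tried were edgeR with RLE scaling or without the filter, DESeq2 1.42.0, limma 3.58.1 on log2(RPKM + 1) for genes with RPKM of at least 1 in 3 libraries, the replicate block, single libraries or all libraries numbered 1 left out, D4h replicates 2 and 3 summed, RPKM on TMM-scaled library sizes and, added after seeing the data, the Dark and L4h total RNA libraries alone and edgeR's robust fit. The unpaired edgeR code was tested first on data simulated without differences between replicate numbers. The paired fits were not tested in this way.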

Additional observations from a re-analysis of the deposited data

How the results depend on the processing

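The unpaired fits called 4955 genes for L4h against Dark and 3132 for L4h against D4h in total RNA, 2205 for L4h against Dark in polysome-bound RNA, while setting polysome-bound beside total RNA called 4371 genes in Dark and 4573 in L4h. RLE scaling, no filter and the robust fit kept every one of these counts, and those of the 9 genes, within 1.5 times, and RPKM on TMM-scaled library sizes moved no mean level by more than its SD. DESeq2 called 7 of the 9 genes in L4h against Dark total RNA (DIN1 got no adjusted p), and 18 genes for D4h against Dark, 5154 for L4h against D4h, 3970 for L4h against Dark in polysome-bound RNA and 3 for the interaction. On limma 8 of the 9 were called in L4h against Dark total RNA, and the calls split into 1613 higher and 2717 lower (edgeR 2323 and 2048) for polysome-bound against total RNA in Dark, 1634 and 3177 (2566 and 2007) in L4h, and 1389 and 2044 (1504 and 1628) for L4h against D4h; the cause was not tested.

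The replicate block called 9059 genes for L4h against Dark in polysome-bound RNA and, for polysome-bound against total RNA, 2 of the 9 among 7096 genes in Dark and 3 of the 9 among 7207 in L4h; on the Dark and L4h total RNA libraries alone it called 9 of the 9 and 8341 genes. In the comparisons with D4h, whose numbers were not taken as paired, it called 2 of the 9 against D4h and none for D4h against Dark. Without all libraries numbered 1, 9 of the 9 and 10524 genes were called for L4h against Dark total RNA, 9 and 10246 for L4h against D4h, 3 and 3509 for L4h against Dark polysome-bound RNA, and 2 genes for the interaction. Summing D4h replicates 2 and 3 left 0 of the 9 and 1313 genes for L4h against D4h.

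Leaving out single libraries gave 0 to 9 of the 9 and 1768 to 4656 genes for L4h against Dark total RNA, 0 to 7 and 1307 to 5604 for L4h against D4h, and 0 to 6 and 750 to 2660 for polysome-bound RNA. It gave 2281 to 4360 and 2481 to 4254 genes for polysome-bound against total RNA in Dark and L4h, and 0 to 1 for the interaction.

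On the log2 scale, every sign that turned under these alternatives belonged to a change that had not passed the unpaired test. Among them was ASN1 for polysome-bound against total RNA in L4h, which the paired fit had called lower. D4h against Dark became positive without libraries numbered 1 for MCCA (0.14), DRM1 (0.17), DIN3 (0.038), DIN4 (0.094), ASN1 (0.65), DIN1 (0.17) and AKINBETA1 (0.090), and with the block for ASN1 (0.22); single libraries left out gave -0.31 to 0.035 for DRM1, -1.71 to 0.36 for ASN1 and -0.53 to 0.032 for DIN1. Polysome-bound against total RNA turned for DRM1 under limma in Dark (-0.15) and without libraries numbered 1 in L4h (0.59), with single-library ranges of -0.10 to 0.25 (DRM1) and -2.32 to 0.12 (ASN1) in Dark and -0.54 to 0.39 (DRM1), -4.03 to 0.081 (ASN1) and -0.44 to 1.83 (DIN1) in L4h. The interaction turned with no filter for DIN3 (-0.00186), under limma for DIN4 (0.066) and DIN2 (0.36), with the block for DIN4 (0.11) and DIN2 (0.30) and without libraries numbered 1 for MCCA (0.26), DRM1 (0.26), DIN4 (0.20), ASN1 (0.089), DIN2 (0.57), DIN1 (0.31), DIN10 (0.066) and AKINBETA1 (0.16). Its single-library ranges were -0.84 to 0.49 for MCCA, -0.62 to 0.31 for DRM1, -0.36 to 0.59 for DIN3, -0.44 to 0.49 for DIN4, -3.38 to 1.57 for ASN1, -0.93 to 1.01 for DIN2, -1.69 to 0.58 for DIN1, -0.94 to 0.40 for DIN10 and -0.72 to 0.34 for AKINBETA1. The cause of these changes was not tested.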
